A study of Mus musculus with 12 samples.

Results

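Oligodendrocytes, the myelin-forming cells of the central nervous system, are specified and matured by a small set of transcription factors. The genes described here were 10 such factors: Olig1, Olig2, Sox10, Sox8, Myrf, Nkx2-2, Nkx6-2, Zfp488, Zfp536 and St18. They were taken by symbol from the 46078 Ensembl genes of the deposited count table, and each matched 1 row. All 10 were among the 15866 genes that passed the filter on low counts and were tested. RNA came from the ventrolateral white matter of the spinal cord of C57Bl6 mice, cut from frozen sections by laser capture microdissection. The young mice were 6 weeks old and the middle-aged mice 8 months old. At each age the tissue was either naïve or injured, which means taken 72 h after a local injection of lysolecithin, a detergent-like lipid that strips myelin. Each of the 4 groups held 3 sequenced pools, 12 in all, and each pool is described as RNA combined from 5 mice. The sources used here do not say whether the pools of a group came from different mice, so p-values measure the spread between pools, which may be technical. The naïve mice are not described as having had a control injection, so the effects of the toxin and of the injection cannot be told apart.

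In this lineage Olig2 and Nkx2-2 act early, in precursors, and stay on in many of their descendants, while Sox10 is held from progenitor to mature cell. Myrf is switched on as a progenitor leaves the cell cycle and, with Sox10, activates the genes of compact myelin. When white matter loses its myelin, progenitors divide, migrate into the lesion and must pass through the same steps to rebuild it.

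Of the 10 factors, 8 were lower in young lesions than in young naïve white matter and 9 were lower in middle-aged lesions, and none was higher at either age. These calls used edgeR with an adjusted p under 0.05, and DESeq2 gave the same counts. Among all 15866 genes tested, 26.3% were called lower and 28.3% higher in young lesions, and 29.3% and 29.2% in middle-aged lesions. The pools of those 8 and 9 factors were also lower without overlap, as were the pools of 32.2% of all genes in young and 29.7% in middle-aged mice. The median log2 fold change of the 10 factors was -1.09 in young and -1.49 in middle-aged mice, beside 0.00064 and -0.032 for all genes. Sox8 fell most in middle-aged mice and St18 in young mice. Zfp488 passed the threshold at neither age, and Nkx2-2 passed it in the middle-aged mice alone. In bulk tissue a smaller number of oligodendrocyte lineage cells and less of a transcript in each cell cannot be told apart.

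The total number of reads assigned to genes was between 9834447 and 12807437 per pool. The factors were covered by 111 to 3043 counts in a pool, well above a floor of 3 counts, which corresponded to 0.234 to 0.305 counts per 1000000 (CPM). Levels below are CPM after scaling by trimmed mean of M values (TMM), and a level per kilobase divides the CPM by the annotated exon length. Mitochondrial genes took 8.12% to 15.97% of the counts. Oligodendrocyte and neuron markers were both present in the naïve pools, which does not tell white matter apart from other spinal cord tissue. The summed CPM of 10 mature oligodendrocyte markers had a median over pools of 98677 in young naïve and 59178 in middle-aged naïve tissue. No gene of any marker list was at 0 in every pool of a group. The make-up of the tissue changed with injury. The 6 myeloid markers summed to 71.7 to 147 CPM in the naïve pools and to 1371 to 1947 CPM in the injured pools. The 6 astrocyte markers went from 10013 to 12270 CPM in the naïve pools to 3646 to 5784 CPM in the injured pools, and the 6 neuron markers from 698 to 2030 CPM to 287 to 494 CPM. Single neuron markers did not all fall. In young lesions 4 were called lower and 0 higher, beside 26.3% and 28.3% of all genes. In middle-aged lesions 4 were called lower and 1 higher, beside 29.3% and 29.2%. The latter was Slc17a6 (log2 fold change 1.52, edgeR adjusted p = 0.00918). The part of these shifts in the results below was not tested.

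**Figure D1:**
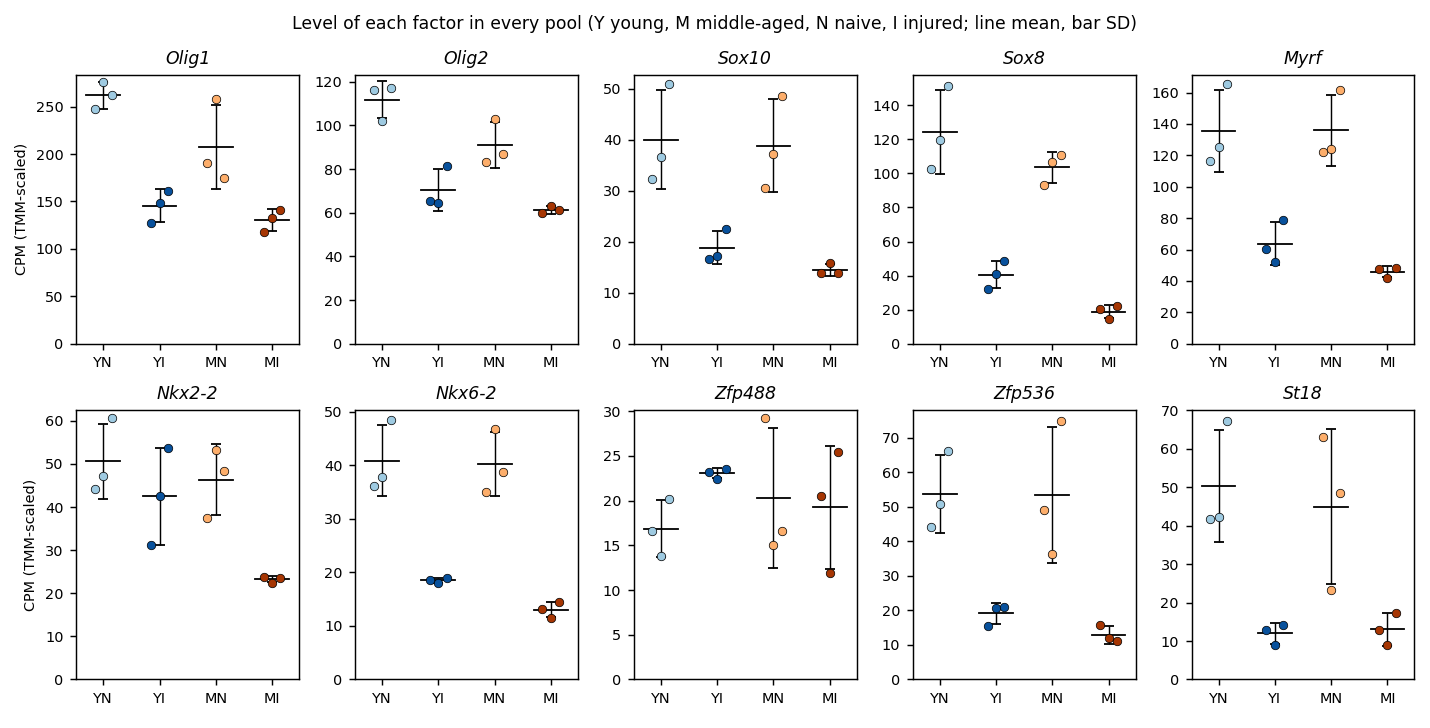
Level of each factor in CPM (TMM-scaled) in every pool. YN, young naïve; YI, young injured; MN, middle-aged naïve; MI, middle-aged injured. Points are pools, horizontal lines are means and bars are SD (n = 3). Injured pools lay below naïve pools for most factors, with Zfp488 as the clearest exception.

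Olig1 and Olig2 encode paired basic helix-loop-helix proteins. Olig2 is required to form the lineage at all, and Olig1 is best known for its role in maturation and in the repair of demyelinated lesions. They are neighbours on chromosome 16 of GRCm38, Olig2 (ENSMUSG00000039830) at chr16:91225457-91228677 and Olig1 (ENSMUSG00000046160) at chr16:91269772-91271933, both on the plus strand and 41094 bases apart with 1 non-coding gene between them.

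Olig1 was measured at 247, 275 and 263 CPM in the young naïve pools and at 127, 149 and 161 CPM in the young injured pools. In middle-aged mice the naïve pools had 190, 258 and 174 CPM and the injured pools 118, 132 and 141 CPM. At both ages every injured pool was below every naïve pool. The log2 fold change was -0.85 (SE 0.15, adjusted p = 0.000206) in young and -0.67 (SE 0.15, adjusted p = 0.00128) in middle-aged mice, so that lesions held 55.7% and 63.0% of the naïve level. On the other strand, 7.26% of its exon bases are shared with Gm15966, which had 0 counts in every pool.

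Olig2 was at 116, 102 and 117 CPM in young naïve pools and 65.5, 64.6 and 81.6 CPM in young injured pools. The middle-aged naïve pools had 83.0, 103 and 86.7 CPM and the injured pools 59.7, 63.2 and 61.2 CPM. Again naïve and injured pools did not overlap at either age. Olig2 changed by -0.66 on the log2 scale (SE 0.13, adjusted p = 0.000496) in young mice and by -0.57 (SE 0.13, adjusted p = 0.00161) in middle-aged mice. Among the members that passed the test at both ages, it had the smallest fall. The ratio of Olig1 to Olig2 within a pool, which does not depend on how libraries are scaled, moved by -0.14 on the log2 scale with injury (exact permutation within age, 2-sided p = 0.125, adjusted over 3 pairs 0.125).

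Sox10 and Sox8 encode SoxE proteins, which bind DNA through a high-mobility-group domain. Sox10 drives myelin genes directly and is also present in Schwann cells, while Sox8 is its close relative with an overlapping role in terminal differentiation. Sox10 (ENSMUSG00000033006) lies at chr15:79154908-79165240 and Sox8 (ENSMUSG00000024176) at chr17:25565892-25570686, both on the minus strand.

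Sox10 stood at 32.4, 36.7 and 50.9 CPM in young naïve pools and 16.7, 17.3 and 22.6 CPM in young injured pools. In middle-aged mice it was at 30.6, 37.2 and 48.6 CPM before injury and at 13.9, 15.9 and 13.8 CPM in lesions. The groups did not overlap. Its log2 fold change was -1.08 (SE 0.21, adjusted p = 0.000522) in young and -1.42 (SE 0.21, adjusted p = 5.08e-05) in middle-aged mice. Schwann cells, which can enter spinal lesions, also carry Sox10. Egr2, a Schwann cell marker and regulator of peripheral myelination, was called higher in lesions at both ages (log2 fold change 4.67 in young and 4.62 in middle-aged mice). The 5 Schwann cell markers summed to 5.55 to 8.59 CPM in naïve pools and 9.55 to 40.8 CPM in injured pools. The part of these markers in the Sox10 values was not tested.

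Sox8 showed the steepest fall of all members in middle-aged mice. In young mice it was at 103, 119 and 151 CPM in naïve pools and 32.3, 40.9 and 48.4 CPM in injured pools. In middle-aged mice the naïve pools had 92.9, 107 and 111 CPM and the injured pools 20.3, 14.4 and 21.99 CPM. The naïve pools of the 2 ages overlapped, whereas all middle-aged injured pools lay below all young injured pools. Lesions held 32.6% of the naïve level in young mice (log2 fold change -1.62, SE 0.19, adjusted p = 5.82e-06) and 18.2% in middle-aged mice (log2 fold change -2.45, SE 0.20, adjusted p = 1.24e-07). Of its exon bases, 10.55% are shared with the antisense gene 2810468N07Rik, and the strand setting of the counting is not given in the sources used here. That gene also had fewer counts in lesions. It had 519 to 647 in young naïve and 126 to 164 in young injured pools. In middle-aged mice it had 452 to 555 in naïve and 75 to 83 in injured pools. Reads of the pair may not be fully separate, which was not tested.

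The ratio of Sox10 to Sox8 rose within pools. Its mean on the log2 scale went from -1.64 (SD 0.068, n = 3) to -1.09 (SD 0.15, n = 3) in young mice and from -1.43 (SD 0.22, n = 3) to -0.35 (SD 0.44, n = 3) in middle-aged mice. All injured pools had a higher ratio than all naïve pools of their age. Averaged over the ages, the change was 0.81 (exact permutation within age, 2-sided p = 0.005, which is the smallest possible, and 0.0075 after adjustment over 3 pairs). In young mice, 32.2% of single genes were lower and 35.0% higher in lesions without overlap. How often pairs of other genes separate as fully, or reach this p, was not examined.

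Myrf encodes a membrane-bound factor that cuts itself free to enter the nucleus, and mature oligodendrocytes need it to make and keep myelin. The gene (ENSMUSG00000036098) lies at chr19:10208272-10240748 on the minus strand. It was measured at 116, 125 and 165 CPM in young naïve pools and 60.6, 51.9 and 78.8 CPM in young injured pools. The middle-aged naïve pools had 122, 124 and 162 CPM and the injured pools 47.7, 41.9 and 48.5 CPM. Without any overlap of pools, Myrf changed by -1.09 on the log2 scale (SE 0.18, adjusted p = 0.000119) in young mice and by -1.56 (SE 0.18, adjusted p = 3.94e-06) in middle-aged mice.

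Nkx2-2 and Nkx6-2 encode homeodomain proteins that act mainly as repressors. Nkx2-2 helps time the step from progenitor to differentiating cell, whereas Nkx6-2 belongs to the mature oligodendrocyte and to the organization of the paranode. Nkx2-2 (ENSMUSG00000027434) lies at chr2:147177546-147194243 and Nkx6-2 (ENSMUSG00000041309) at chr7:139579376-139582797, both on the minus strand.

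Nkx2-2 was at 44.2, 47.2 and 60.6 CPM in young naïve pools and 31.2, 42.6 and 53.6 CPM in young injured pools, and these ranges overlapped. In middle-aged mice it was at 37.4, 53.3 and 48.4 CPM in naïve and 23.8, 22.5 and 23.6 CPM in injured pools, which did not overlap. Nkx2-2 was therefore called in the middle-aged mice (log2 fold change -0.99, SE 0.20, adjusted p = 0.000627) but not in the young mice (log2 fold change -0.25, SE 0.19, adjusted p = 0.292). The difference between those effects was -0.74 (SE 0.28) and was not past the threshold (unadjusted p = 0.0183, adjusted p = 0.368). The antisense gene Nkx2-2os shares 9.67% of its exon bases and had 16 to 72 counts per pool beside 274 to 713 for Nkx2-2.

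Nkx6-2 was at 36.2, 37.8 and 48.4 CPM in young naïve and 18.5, 17.96 and 19.0 CPM in young injured pools. The middle-aged naïve pools had 35.1, 46.7 and 38.7 CPM and the injured pools 13.1, 11.6 and 14.5 CPM. Injured pools were below naïve pools throughout. The log2 fold change was -1.14 (SE 0.16, adjusted p = 3.76e-05) in young and -1.62 (SE 0.17, adjusted p = 1.31e-06) in middle-aged mice. Inpp5a, on the other strand, shares 12.9% of the exon bases of Nkx6-2. Its counts were 717 to 905 in naïve and 392 to 571 in injured pools.

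The ratio of Nkx6-2 to Nkx2-2 fell. Its mean on the log2 scale went from -0.31 (SD 0.019, n = 3) to -1.16 (SD 0.38, n = 3) in young mice and from -0.20 (SD 0.12, n = 3) to -0.83 (SD 0.13, n = 3) in middle-aged mice. The average change was -0.74 (exact permutation within age, 2-sided p = 0.005, the smallest possible, adjusted 0.0075), and naïve and injured pools did not overlap at either age. Here too, the share of other gene pairs that separate in this way was not examined.

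Zfp488, Zfp536 and St18 encode zinc finger proteins. Zfp488 works with Olig2 to promote oligodendrocyte differentiation, Zfp536 is known for restraining neuronal differentiation, and St18 belongs to the Myt family. Zfp488 (ENSMUSG00000044519) lies at chr14:33967070-33978764 and Zfp536 (ENSMUSG00000043456) at chr7:37472135-37773641, both on the minus strand, and St18 (ENSMUSG00000033740) at chr1:6487231-6860940 on the plus strand.

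Zfp488 was the only member not called lower at either age. It was at 16.6, 13.9 and 20.2 CPM in young naïve pools and 23.2, 22.5 and 23.5 CPM in young injured pools. Here every injured pool was above every naïve pool, as for 35.0% of all genes, but the log2 difference of 0.45 (SE 0.28) did not pass the test (adjusted p = 0.190). It passed when the young injured and young naïve pools were fitted alone (0.45, adjusted p = 0.0282). In middle-aged mice the naïve pools had 29.2, 14.99 and 16.6 CPM and the injured pools 20.5, 11.9 and 25.4 CPM. These overlapped, and the log2 difference was -0.08 (SE 0.28, adjusted p = 0.835). Its standard errors were among the wider ones, and 18.2% of the 31-base stretches of its transcript also occur in transcripts of other genes, so part of its reads may be uncertain.

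Zfp536 was at 44.1, 51.0 and 66.3 CPM in young naïve and 15.5, 20.8 and 21.1 CPM in young injured pools. In middle-aged mice it was at 49.2, 36.4 and 74.8 CPM in naïve and 15.8, 11.9 and 11.04 CPM in injured pools. Naïve pools varied widely, but none reached down to an injured pool. The log2 fold change was -1.49 (SE 0.25, adjusted p = 0.000158) in young and -2.05 (SE 0.26, adjusted p = 9.1e-06) in middle-aged mice.

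St18 was at 41.7, 42.3 and 67.1 CPM in young naïve and 12.8, 8.98 and 14.1 CPM in young injured pools. The middle-aged naïve pools had 63.0, 23.4 and 48.6 CPM and the injured pools 12.8, 8.85 and 17.3 CPM. All injured pools were lower than the naïve pools of their age. St18 changed by -2.07 on the log2 scale (SE 0.34, adjusted p = 0.000132) in young mice, the largest fall there, and by -1.79 (SE 0.34, adjusted p = 0.000389) in middle-aged mice.

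**Figure D2:**
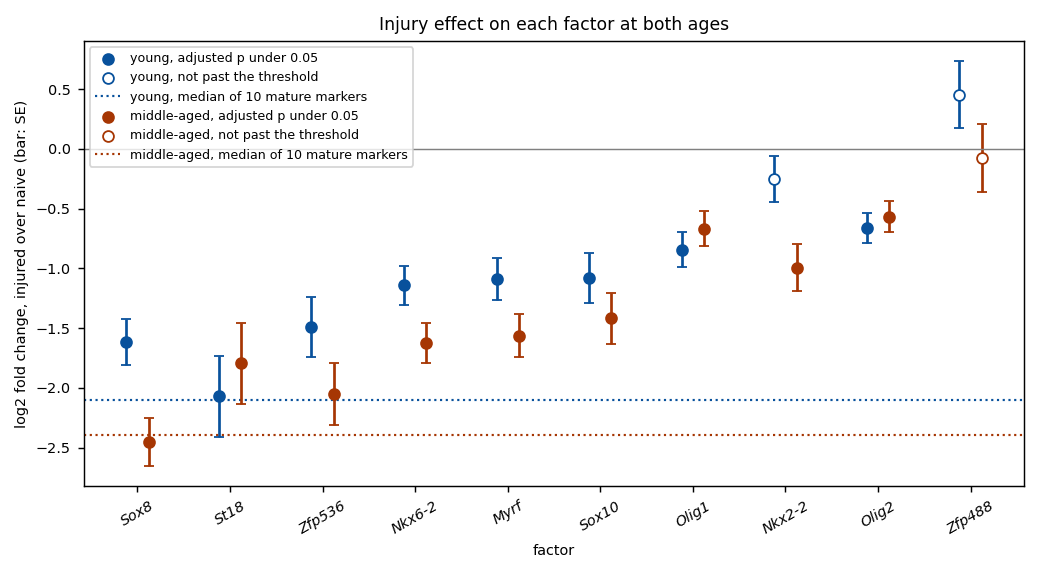
Log2 fold change of each factor, injured over naïve, at both ages. Bars are SE, filled points passed an adjusted p of 0.05, and dotted lines give the median of 10 mature oligodendrocyte markers at -2.10 in young and -2.39 in middle-aged mice. All points except young Zfp488 are below 0, and the middle-aged value of Sox8 is the lowest.

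Per kilobase of exon, Olig1 had the highest level in every group, at 121 CPM per kilobase (SD 6.5, n = 3) in young naïve tissue and 60.4 (SD 5.4, n = 3) in middle-aged lesions. Olig2 came next in every group, at 44.2 (SD 3.4, n = 3) and 24.3 (SD 0.70, n = 3) CPM per kilobase. In naïve tissue of either age Sox8 followed, then Nkx6-2, Nkx2-2, Myrf, Sox10, St18, Zfp536 and Zfp488. The pools of Olig2 and Sox8 overlapped there, as did those of St18 and Zfp536 and of each pair of neighbours from Nkx6-2 through Sox10. In lesions Nkx2-2 came next after Olig2, at 14.8 (SD 3.9, n = 3) CPM per kilobase in young and 8.11 (SD 0.25, n = 3) in middle-aged mice. It overlapped with Sox8 in young lesions and lay above Nkx6-2, its next neighbour, in middle-aged lesions. Zfp488, lowest in naïve tissue at 3.92 (SD 0.74, n = 3) CPM per kilobase in young mice, ranked eighth in lesions of both ages, where its level was 5.37 (SD 0.13, n = 3) in young mice. In middle-aged mice its pools overlapped with those of Zfp536 in naïve tissue and with those of Sox10 in lesions. Zfp536 and St18 took the last places in lesions and overlapped each other.

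The promoter sequences of 4 members are shown because these genes span the range of responses: Sox8 fell most in middle-aged lesions, Nkx6-2 fell at both ages, Nkx2-2 fell in middle-aged lesions, and Zfp488 did not pass the test. The RefSeq promoter tables (GRCm38.p6) held 6 of the 10 members. Each stretch ends where protein-coding exon bases begin and runs 5′ to 3′ on the minus strand. Capitals mark E-boxes, CANNTG, the type of word bound by basic helix-loop-helix proteins such as Olig1 and Olig2.
Sox8, chr17:25570687-25570936: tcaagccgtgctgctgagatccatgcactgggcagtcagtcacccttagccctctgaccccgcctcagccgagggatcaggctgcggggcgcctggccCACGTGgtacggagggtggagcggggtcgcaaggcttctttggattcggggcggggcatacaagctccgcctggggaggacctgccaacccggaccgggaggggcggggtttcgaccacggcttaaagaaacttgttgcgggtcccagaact
Nkx6-2, chr7:139582798-139583047: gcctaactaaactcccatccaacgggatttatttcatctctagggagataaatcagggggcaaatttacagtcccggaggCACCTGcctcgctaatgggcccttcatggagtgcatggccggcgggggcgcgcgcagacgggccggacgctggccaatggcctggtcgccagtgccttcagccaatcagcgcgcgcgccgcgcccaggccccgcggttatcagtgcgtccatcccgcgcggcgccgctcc
Nkx2-2, chr2:147186456-147186652: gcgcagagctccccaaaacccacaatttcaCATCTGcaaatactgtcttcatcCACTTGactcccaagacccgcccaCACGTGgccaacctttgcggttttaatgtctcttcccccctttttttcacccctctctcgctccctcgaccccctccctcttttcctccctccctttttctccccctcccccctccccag
Zfp488, chr14:33978765-33979014: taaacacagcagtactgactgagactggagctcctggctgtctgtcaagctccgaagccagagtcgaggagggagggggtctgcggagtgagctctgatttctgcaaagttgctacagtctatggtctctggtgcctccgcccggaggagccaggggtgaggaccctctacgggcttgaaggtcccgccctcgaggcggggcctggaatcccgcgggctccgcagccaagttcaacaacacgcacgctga
The Nkx2-2 stretch is 197 bases long, lies 53 bases before the RefSeq start and falls inside the longer Ensembl gene. The others are 250 bases long.

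An E-box occurred 1 time each in Sox8 and Nkx6-2 and 3 times in Nkx2-2, and Zfp488 had none. Both strands were searched. Among 32851 RefSeq promoter windows, 66.2% of 250-base windows and 57.6% of 197-base windows held an E-box. The same windows were searched for a SOX core (ACAAAG or ACAATG), a MYRF word (CTGGNAC) and an NKX2 core (CAAGTG), which 25.2%, 16.1% and 11.6% of all 250-base windows held. Sox8 had 1 MYRF word and Nkx2-2 had 1 NKX2 core, which overlaps an E-box (8.93% of 197-base windows held the core). The SOX core was in none of the 4 stretches. These matches describe letters only and say nothing about binding.

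The other regulators of the lineage moved in both directions, as did genes at large. Of all genes tested, 28.3% were called higher and 26.3% lower in young lesions, and 29.2% and 29.3% in middle-aged lesions. The lists below were not tested against these shares. Among 25 regulators that favour it, 9 were called higher and 6 lower at each age, with medians of 0.20 in young and 0.06 in middle-aged mice on the log2 scale. Prrx1 was among the highest (2.07 in young and 2.45 in middle-aged mice). Lowest were Thra, the thyroid hormone receptor (-1.61 and -2.19), and Klf9, a thyroid hormone target (-1.61 and -1.76). Of 16 regulators that hold cells back, 15 were tested. In young mice 4 were called higher (Egr1, Sox4, Sox11 and Hes1) and 3 lower (Id4, Hey1 and Sox9). In middle-aged mice 5 were called higher and 6 lower. By the same measure Egr1, an immediate early gene, was highest (3.26 and 2.95) and Id4, an inhibitor of basic helix-loop-helix proteins, lowest (-2.06 and -3.06). Sox11, Hes1 and Sox9 were chosen for naming after their values were seen.

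**Figure D3:**
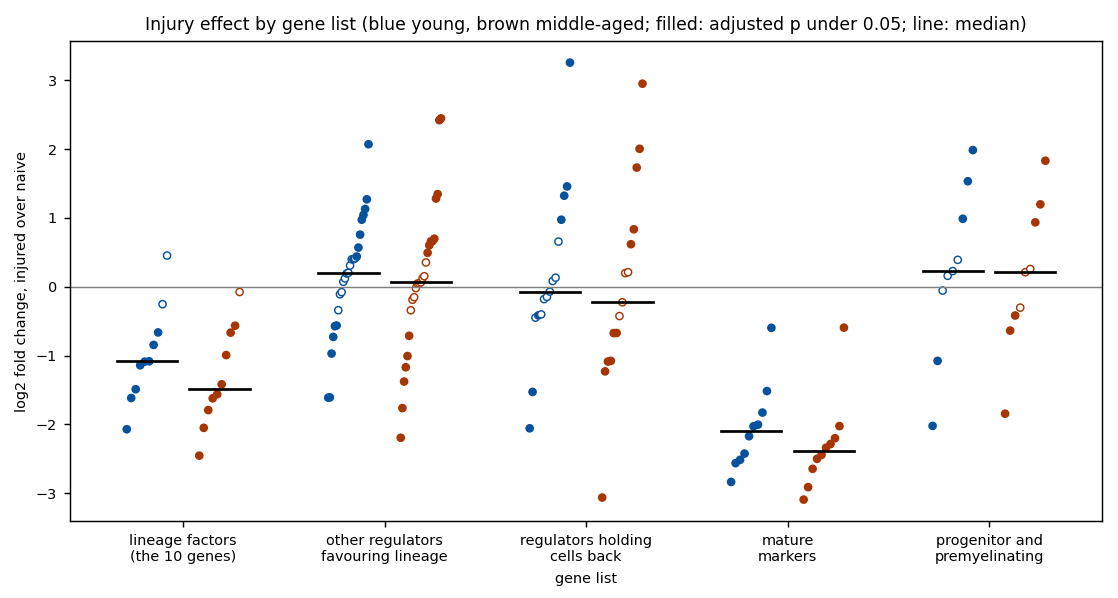
Log2 fold change, injured over naïve, of every tested gene in 5 lists, with young mice in blue and middle-aged mice in brown. Filled points passed an adjusted p of 0.05 and black lines are medians. At each age the median of the 10 factors lies between that of the mature markers and that of the progenitor markers.

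All 10 mature oligodendrocyte markers were called lower in lesions at both ages, with medians of -2.10 and -2.39. Opalin, a membrane protein of mature oligodendrocytes, changed by -2.84 and -2.91 in young and middle-aged mice, and Cldn11, the tight junction protein of the myelin sheath, changed least, by -0.60 and -0.59. Among 9 progenitor and premyelinating markers, Cspg4 (1.99 and 1.83), Vcan (1.53 and 1.198) and Pdgfra (0.99 and 0.94) were called higher at both ages. Bcas1 (-1.08 and -0.64) and Enpp6 (-2.02 and -1.84), markers of newly forming oligodendrocytes, were called lower at both ages, and Ptprz1 (-0.42) in middle-aged mice. Pdgfra and Ptprz1 were named after their values were seen. All 4 proliferation markers were called higher at both ages, with medians of 5.38 and 6.92, in lesions where myeloid markers were also higher.

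The factors were next set against the mature markers of the same pool, as the log2 CPM of the factor minus the mean log2 CPM of the 10 markers. Injured pools had the higher value without overlap for 9 of 10 factors in young mice and for 7 of 10 in middle-aged mice, as they had for 90.3% and 89.4% of all genes tested. The median change of the factors was 0.97 and 0.85, below the 2.06 and 2.33 of all genes, with markers that were themselves lower in lesions. Zfp488 moved most, by 2.51 and 2.24. Sox8 moved by 0.43 in young mice and by -0.14, with overlap, in middle-aged mice, and St18 by -0.00078, with overlap, in young mice. Set against the 9 progenitor and premyelinating markers instead, 9 factors were lower in lesions at each age, with median changes of -1.31 and -1.61. Over all genes 36.5% and 33.4% were lower without overlap on this measure, with medians of -0.22 and -0.13. Zfp488 was the exception at both ages. These differences are descriptions and were given no test.

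**Figure D4:**
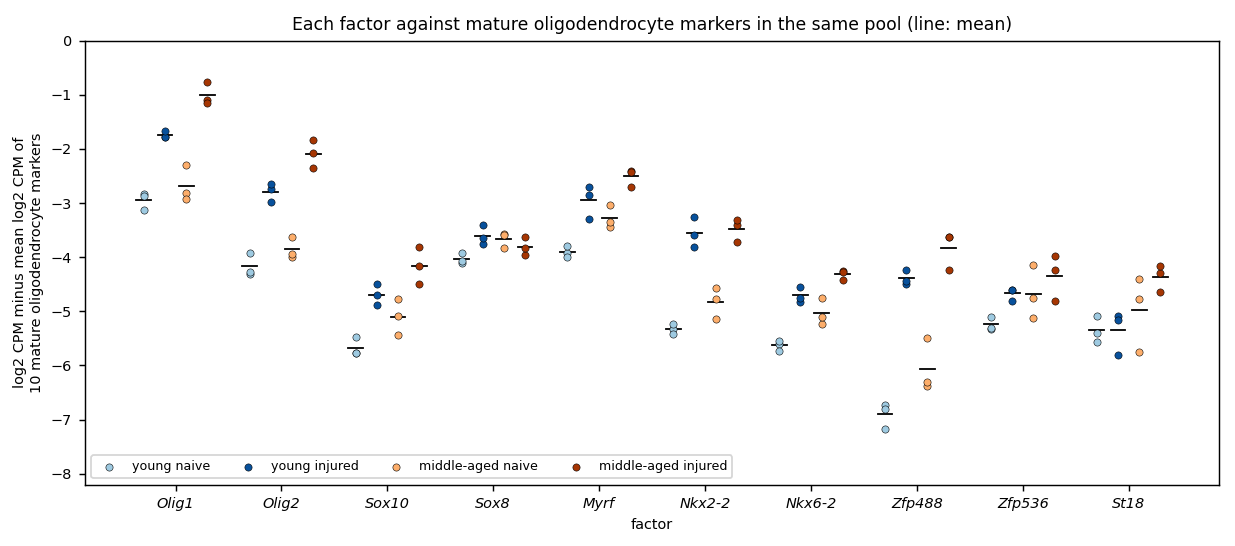
Log2 CPM of each factor minus the mean log2 CPM of 10 mature oligodendrocyte markers in the same pool. Points are pools, lines are means of 3 pools, and colours give the 4 groups. Injured pools lie above naïve pools of the same age for most factors, as for most genes, and most of all for Zfp488, while Sox8 in middle-aged mice does not separate.

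Between the ages, none of the 10 factors was called in naïve tissue by edgeR or by DESeq2, where edgeR called 3.80% of all genes in either direction. At an unadjusted p under 0.05, which 18.3% of all genes had, there were 2, Olig1 (-0.34, SE 0.15, adjusted p = 0.233) and Olig2 (-0.30, SE 0.13, adjusted p = 0.224), and the naïve pools of both overlapped between ages. The other values in naïve tissue were between -0.26 for Sox8 and 0.27 for Zfp488. In the same naïve tissue 5 of the 10 mature markers were called lower in middle-aged mice.

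In lesions, 1 factor, Sox8, was called lower in middle-aged mice, where 0.908% of all genes were. The injured pools given above correspond to a log2 difference of -1.10 (SE 0.20, adjusted p = 0.0125), so that middle-aged lesions held 46.6% of the young level. The call was lost, with adjusted p between 0.0635 and 0.0958, when young injured pool 2 or 3 or middle-aged injured pool 1 or 2 was left out. Nkx2-2 was close to the threshold, at -0.87 (SE 0.20, adjusted p = 0.0525), and its adjusted p ran from 0.0024 to 0.338 over the alternatives. It was called with DESeq2, with library totals alone, with the filter of at least 1 count, with the replicate block and with only the injured pools fitted. It was also called without young injured pool 1, young naïve pool 3 or middle-aged naïve pool 1 or 2. Nkx6-2 (-0.50, SE 0.17, adjusted p = 0.225), Myrf (-0.47, SE 0.18, adjusted p = 0.324), Sox10 (-0.37, SE 0.21, adjusted p = 0.680) and Olig2 (-0.20, SE 0.13, adjusted p = 0.755) were lower in every middle-aged injured pool than in every young injured pool, but were not called. With Sox8 and Nkx2-2 these made 6 of 10 factors without overlap, beside 12.2% of all genes. Zfp536 was at -0.57 (SE 0.25), Zfp488 at -0.26 (SE 0.28), Olig1 at -0.16 (SE 0.15) and St18 at 0.12 (SE 0.34), all with overlapping pools. In the same lesions 7 of the 10 mature markers were called lower in middle-aged mice, with a list median of -0.86, beside -0.42 for the 10 factors.

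**Figure D5:**
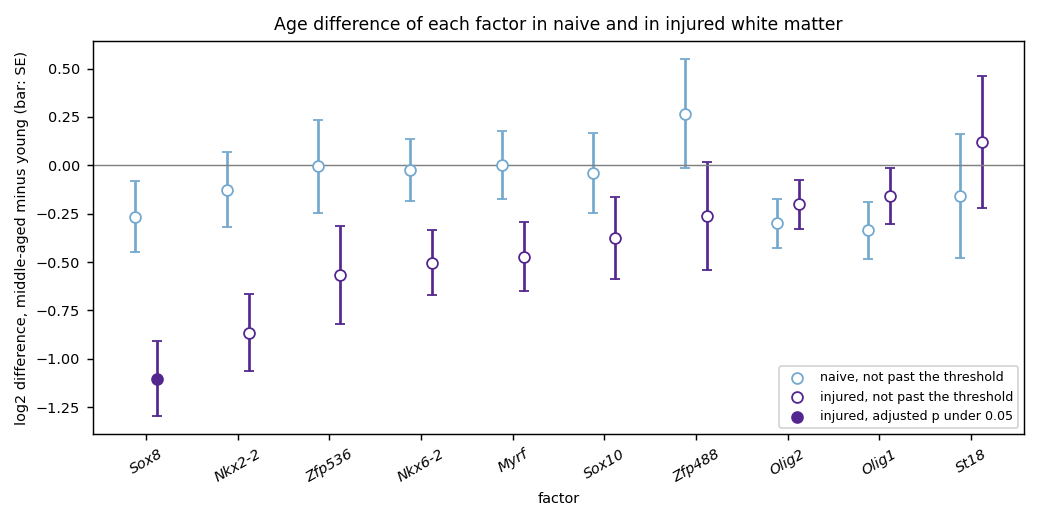
Log2 difference of each factor, middle-aged minus young, in naïve and in injured white matter. Bars are SE, and the filled point passed an adjusted p of 0.05. Sox8 in lesions, at -1.10, is the filled point, and naïve values lie between -0.34 and 0.27.

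The difference between the injury effects of the 2 ages was not called for any factor by edgeR or by DESeq2, and by edgeR 0.139% of all genes were called. At an unadjusted p under 0.05, which 9.93% of all genes had, there were 2, Sox8 (-0.84, SE 0.27, unadjusted p = 0.00738, adjusted p = 0.260) and Nkx2-2. The log2 difference of the effects was between -0.84 and 0.28, with a median of -0.48 over the 10 factors and -0.05 over all genes. It was below 0 for every factor except Olig1 (0.18, SE 0.21), Olig2 (0.10, SE 0.18) and St18 (0.28, SE 0.47).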

How the data were processed

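RNA from laser-captured spinal cord white matter was sequenced by the authors on an Illumina NextSeq500. Per the labels and the submitters' processing notes, reads were checked with FastQC 0.11.4, mapped to GRCm38 with TopHat2 2.0.10 and Bowtie 1.1.2, and counted per gene with featureCounts, whose version and strand setting are not given in the sources used here. The deposited counts per Ensembl gene were used as they stood. The 12 pools held 9834447 to 12807437 counts, and floors cover counting error only. The RNA was amplified when the libraries were built.

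Gene symbols and positions came from a GRCm38 annotation, which named 45229 of 46078 genes. Counts were fitted with edgeR 4.0.16 (R 4.3.3): TMM factors, the default filter on low counts, 1 coefficient per group over all 12 pools, quasi-likelihood tests and Benjamini-Hochberg adjustment over 15866 genes, with a threshold of 0.05. SE was taken as the log2 fold change over the root of the F statistic. Log2 CPM was computed with 2 prior counts. Ratios of gene pairs were tested by exact permutation over 400 arrangements within age. No 2 pools were alike within sampling noise (chi-square per degree of freedom at least 8.04).

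All 10 members are named. From each other list the text names the 2 genes with the highest and the 2 with the lowest mean injury effect, and for each member the 3 genes most like it; some genes are not reported here. The members and lists were chosen with earlier results of these data known. Other scalings and filters, DESeq2 1.42.0, a replicate block, fits of only the pools compared and leaving out each pool were tried as alternatives.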

Additional observations from a re-analysis of the deposited data

How the results depend on the processing

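The counts of factors called for injury, 8 in young and 9 in middle-aged mice, were the same under every alternative run, each pool left out in turn included, except that Zfp488 was called higher in young lesions when only the pools compared were fitted. The same-numbered pools did not deviate together (correlations from -0.11 to 0.15, of which 2 of 18 were over 0.1), so the replicate numbers do not pair the pools. With the replicate block the count for age in lesions was 2, and the block changed no other count.

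The count of 1 for age in lesions became 2, with Nkx2-2 added, with library totals alone, with the filter of at least 1 count, with the replicate block and with DESeq2, and 3, with Nkx6-2 also added, when only the pools compared were fitted. Over all genes these fits called 227, 437, 189, 441 and 821 genes, beside 182. Leaving out pools gave 0 to 2 factors for age in lesions. For age in naïve tissue it gave 0 to 1, the latter Olig1 (-0.53, adjusted p = 0.0320) without middle-aged naïve pool 2. The cause was not tested.

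The directions that turned were all of values that did not pass the test. Zfp488 in middle-aged lesions was at 0.028 with library totals alone, a scaling that put the median of all genes at 0.077 there and at 0.20 in young lesions, and ran from -0.32 to 0.29 with pools left out. For age in naïve tissue, Myrf was at -0.0054 with upper-quartile factors and -0.0097 with the filter of at least 1 count, and Zfp536 at 0.029 with library totals alone and 0.0033 with mitochondrial genes left out. With pools left out, the naïve age values ran from -0.15 to 0.17 for Myrf, -0.24 to 0.17 for Sox10, -0.24 to 0.020 for Nkx2-2, -0.15 to 0.11 for Nkx6-2, -0.0907 to 0.44 for Zfp488, -0.33 to 0.21 for Zfp536 and -0.48 to 0.15 for St18. For St18 the age value in lesions ran from -0.13 to 0.34 and the difference of injury effects from -0.028 to 0.60. The ratio changes ran from 0.69 to 0.89 for Sox10 to Sox8, -0.84 to -0.66 for Nkx6-2 to Nkx2-2 and -0.18 to -0.085 for Olig1 to Olig2. The reference of progenitor markers was added after seeing the data.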

Other observations

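Genes with a profile over the 12 pools most like that of a factor were found by the root mean square difference of log2 CPM after each gene was centred on its own mean, over 9714 genes. Olig2 was nearest to Afap1l1 (0.095), Nipsnap2 (0.10) and Mlf2 (0.11), and Olig1 to Tuba1a (0.11), Ldah (0.12) and H1f0 (0.13). For Nkx6-2 they were Neo1 (0.094), Tgfb2 (0.13) and Fam171b (0.13), for Sox10 Limch1 (0.15), Mast3 (0.15) and Ermp1 (0.15), and for Myrf Kndc1 (0.14), Clasp2 (0.14) and Ncam1 (0.14). Sox8 was nearest to Tmem151a (0.16), Car14 (0.18) and Map6d1 (0.18), and Zfp536 to Tmem132b (0.17), Cntn2 (0.18) and Arhgef10 (0.19). The nearest genes were farther off for Nkx2-2, with Rgma (0.19), Fxyd6 (0.20) and Rtkn2 (0.20), for Zfp488, with Zfp942 (0.20), Atr (0.20) and Qser1 (0.21), and for St18, with Sh3tc2 (0.26), Phkg1 (0.26) and Asxl3 (0.26). Within the 10 factors, the nearest pairs were Olig1 with Olig2 (0.14) and Sox10 with Myrf (0.14), while the nearest factor to Zfp488 was Olig2, at 0.58. These are descriptions over pools that share their groups.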
